A study of Mus musculus with 2 samples.

Results

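Ctnna3, Dkk2, Adamts16, Baiap2l2, Mamdc2, Tmem163, Ank and Csmd3 are 8 of the 33696 genes counted in single CD45+ cells of the mouse thalamus after cortical brain injury. They were chosen from this same comparison, as genes with far fewer molecules in microglia after anti-CD9 Ab than after control Ab, so their differences between the antibodies are given as a description and carry no test. Their levels across microglial states use the same control Ab cells and are described likewise. Macrophages and cells of other types, taken as background, were part of the comparison set out for these genes. Levels in those cells are therefore a description as well. What the choice did not use is the features of the genes themselves. The working description of the set, near loss from microglia, held for Ctnna3, Dkk2, Adamts16, Baiap2l2, Mamdc2 and Tmem163. It did not hold for Csmd3, which stayed at 579 CPM (UMIs scaled to 1000000 UMIs of its cell group) in microglia-like cells after anti-CD9 Ab, and Ank kept a measurable level as well.

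Each antibody was represented by 1 library, of live CD45+ cells sorted from the thalamus of C57B6/J mice. All animals had a cortical brain injury, no group was uninjured, and no allele was altered. The control Ab group received normal rat IgG and the anti-CD9 Ab group a rat antibody to mouse CD9, both at 1.0 µg/µl through a cannula into the thalamus, repeatedly from day 7 to day 19 after injury, with collection on day 21. The study's methods describe pooling cells of 4 mice for a thalamus library and mostly female animals, 12 weeks old. With a single library each, the spread between pools of mice cannot be told apart from the antibody. The intervals below are 95% intervals and cover counting error only.

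The control Ab library held 12245 barcodes and 38042608 UMIs, unique molecular identifiers that each stand for 1 captured RNA molecule, and the anti-CD9 Ab library held 15173 barcodes and 40825201 UMIs. After filtering, 7467 and 9162 cells remained with a median of 1880 and 1419 UMIs, and 18 kept barcodes occurred in both libraries. Cell groups were named from marker genes after clustering without the 8 genes. The libraries differed widely in their make-up. Neutrophil-like cells were 0.857% of kept cells after control Ab and 29.9% after anti-CD9 Ab, and macrophage-like cells 2.56% and 13.6%. T cell-like cells were 37.6% and 10.8%, and microglia-like cells 24.8% and 8.27%. Microglia-like cells numbered 1853 after control Ab (median 3235 UMIs) and 758 after anti-CD9 Ab (median 3415.5 UMIs). All 10 microglial markers were detected in both libraries, among them Tmem119 at 281 CPM after control Ab and 293 after anti-CD9 Ab, and P2ry12 at 1052 and 712. These cells fell into 2 clusters, a MG#4-like one (830 and 226 cells) that led with Lpl, Spp1 and Cst7, and a MG#2/3-like one (1023 and 532 cells) that led with Siglech and P2ry12.

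Microglia in injured or degenerating tissue commonly leave a homeostatic program marked by P2ry12 and Tmem119 and turn on lipid handling, lysosomal and secreted genes such as Lpl, Ctsd and Spp1, many of them shared with the program known as disease-associated microglia. MG#4 is the study's name for a microglial state high in CD9, found in thalamus and hippocampus and enriched in the thalamus. It overlaps that program, and the study treats it as a separate state. CD9 itself is a tetraspanin, a membrane protein that organises other surface proteins. The 8 genes have separate textbook roles. Ctnna3 encodes αT-catenin, which ties cadherin junctions to actin, and Baiap2l2 an I-BAR protein that binds and bends membranes over actin. Dkk2 is a secreted Wnt modulator that binds the LRP5 and LRP6 coreceptors, Adamts16 a secreted metalloprotease, and Mamdc2 a secreted matrix protein with MAM domains. Tmem163 is a zinc transporter of vesicle membranes, Ank a transporter that raises extracellular pyrophosphate, and Csmd3 a very large membrane protein with CUB and sushi domains, best known from neurons.

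The RefSeq promoter table (build GRCm38.p6) held 6 start sites for 4 of the 8 genes. The 250 bases before the start are shown for 4 of these sites, to set side by side the letters upstream of genes that moved together. Capitals mark a TATA box, TATAAA. The windows are chr10:63429848-63430097 (plus strand, the most upstream of 3 Ctnna3 starts), chr3:132085042-132085291 (plus strand, Dkk2), chr1:127678022-127678271 (minus strand, Tmem163) and chr15:27466427-27466676 (plus strand, Ank).
Ctnna3: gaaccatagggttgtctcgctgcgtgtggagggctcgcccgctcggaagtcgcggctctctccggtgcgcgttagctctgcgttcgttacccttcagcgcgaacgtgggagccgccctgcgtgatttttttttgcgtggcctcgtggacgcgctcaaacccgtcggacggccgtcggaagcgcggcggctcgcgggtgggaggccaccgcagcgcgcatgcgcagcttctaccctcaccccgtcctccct
Dkk2: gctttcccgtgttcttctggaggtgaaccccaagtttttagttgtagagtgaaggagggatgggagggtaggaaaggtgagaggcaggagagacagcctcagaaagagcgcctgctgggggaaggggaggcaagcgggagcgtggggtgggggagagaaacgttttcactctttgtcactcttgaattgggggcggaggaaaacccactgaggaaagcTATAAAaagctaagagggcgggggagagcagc
Tmem163: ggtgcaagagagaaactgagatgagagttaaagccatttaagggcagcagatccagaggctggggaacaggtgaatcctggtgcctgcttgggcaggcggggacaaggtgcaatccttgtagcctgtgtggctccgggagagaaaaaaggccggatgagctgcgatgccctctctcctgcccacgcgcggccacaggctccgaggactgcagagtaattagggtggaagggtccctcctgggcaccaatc
Ank: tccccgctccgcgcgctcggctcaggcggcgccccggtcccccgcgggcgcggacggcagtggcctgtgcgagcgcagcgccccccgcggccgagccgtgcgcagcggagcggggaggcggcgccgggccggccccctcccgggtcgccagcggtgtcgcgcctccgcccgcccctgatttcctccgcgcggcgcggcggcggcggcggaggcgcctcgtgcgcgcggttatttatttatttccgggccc
The upstream windows differed widely in composition. Ank had 81.2% G or C and 49 CG dinucleotides, and the Ctnna3 start 67.6% and 36, against medians of 52.4% and 6 over 32851 promoters. Dkk2 (55.6% and 7) and Tmem163 (58.8% and 8) lay close to those medians. Both strands were searched for PU.1 GAGGAAGT, the E-boxes CACGTG and CATGTG, AP-1 TGANTCA, C/EBP TTGCNNAA and the TATA box TATAAA. In the 6 windows the TATA box occurred in Dkk2, starting 32 bases before the start, and in the most downstream Ctnna3 window, against 12.4% of all promoters. The C/EBP letters occurred in the middle Ctnna3 window, against 9.56% of all promoters, and the other 4 motifs (2.44%, 6.02%, 12.3% and 6.75% of all promoters, in the order listed) in none. No single motif was therefore common to the 4 genes in these windows.

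In microglia-like cells 7 of the 8 genes were lower after anti-CD9 Ab by at least 2 on the log2 scale. That limit was passed by 0.505% of the 7722 genes with at least 200 UMIs, a share from which nothing is read here because the genes were chosen on this contrast. Expressed as anti-CD9 Ab over control Ab, the median log2 ratio was -4.38 over the 8 genes and 0.04 over all 7722. Counted from the lowest ratio, Dkk2, Ctnna3, Baiap2l2, Mamdc2 and Tmem163 took places 1 to 5, Adamts16 was at 9, Ank at 20 and Csmd3 at 90. Mamdc2, at 0 UMIs, was placed at the floor of 3 UMIs, so its own place and the median of the 8 genes may be lower than given.

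**Figure D1:**
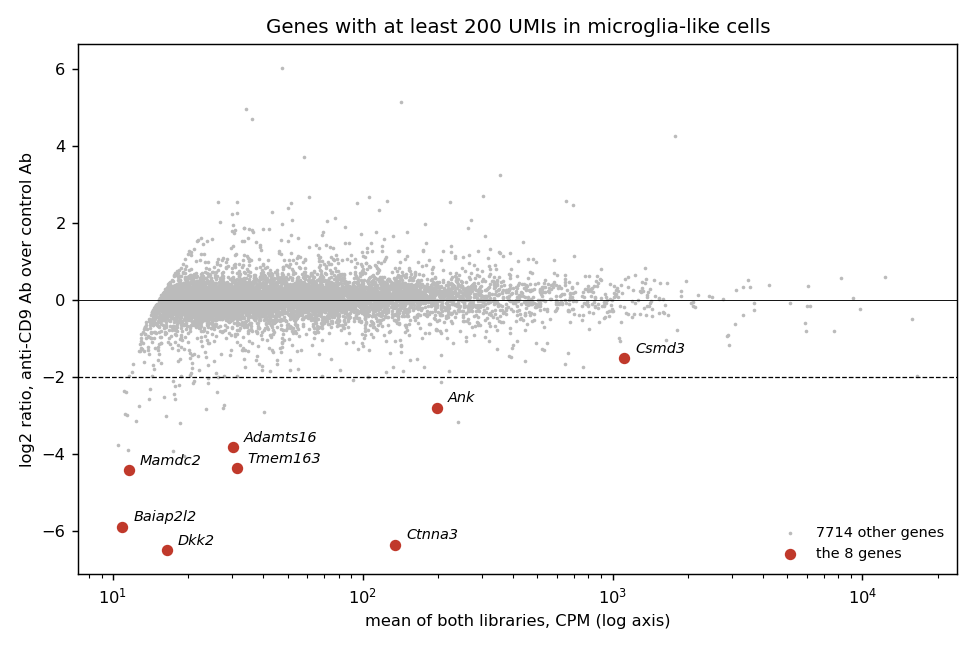
Each point is a gene with at least 200 UMIs in microglia-like cells, plotted by its mean level over both libraries (CPM, log axis) and its log2 ratio between the libraries (below 0 for less after anti-CD9 Ab), with a dashed line at -2 and Mamdc2, at 0 UMIs, placed at 3 UMIs. The 8 genes in red span ratios from -6.48 for Dkk2 to -1.51 for Csmd3, while the median of all 7722 genes is 0.04.

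Among the genes of the cytoskeleton, Ctnna3 had 2783 UMIs in the control Ab microglia-like cells (267 CPM, interval 257 to 277) and 9 in the anti-CD9 Ab ones (3.28 CPM), 81.3-fold less. Baiap2l2 had 224 UMIs (21.5 CPM) and 1 UMI (0.365 CPM), a log2 ratio of -5.88 with an interval from -8.71 to -3.05. With 1 UMI left, the size of the Baiap2l2 difference is known only within that wide interval.

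The 3 secreted products behaved alike in direction. Dkk2 had 340 UMIs after control Ab (32.6 CPM) and 1 UMI after anti-CD9 Ab, a log2 ratio of -6.48 (interval -9.31 to -3.65). Mamdc2 had 242 UMIs (23.2 CPM) and none, which against a floor of 3 UMIs in the anti-CD9 Ab group is at least 21.2-fold lower. Adamts16 went from 590 to 11 UMIs, or from 56.6 to 4.01 CPM, 14.1-fold less.

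The 3 membrane proteins were lower by unlike amounts. Tmem163 had 622 UMIs (59.6 CPM) and 8 (2.92 CPM), 20.4-fold less. Ank, at 3619 and 138 UMIs (347 and 50.3 CPM), was 6.89-fold lower. Csmd3 had 17181 and 1587 UMIs (1647 and 579 CPM) and was 2.84-fold lower, the smallest difference of the 8. Because Csmd3 holds most of the UMIs, the sum of the 8 genes was lower by a log2 ratio of -1.94 (interval -2.01 to -1.87), and without Csmd3 by -3.72 (interval -3.94 to -3.50), from 8420 to 168 UMIs.

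The difference lay in how many cells held these RNAs and in how many molecules each such cell held. After control Ab, Ctnna3 was found in 309 of 1853 microglia-like cells, with 9.01 UMIs per positive cell, up to 94 in a cell, and 95 cells at 10 or more. The 10 highest cells held 18.9% of its UMIs. After anti-CD9 Ab it was found in 9 of 758 cells, 1 UMI in each. Csmd3 was the opposite case, present in 1611 of 1853 cells at 10.7 UMIs per positive cell, and in 350 of 758 at 4.53. Ank had 4.39 UMIs per positive cell after control Ab (825 cells) and 1.48 after anti-CD9 Ab (93 cells), and the remaining 5 genes had 1.26 to 2.14 after control Ab.

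**Figure D2:**
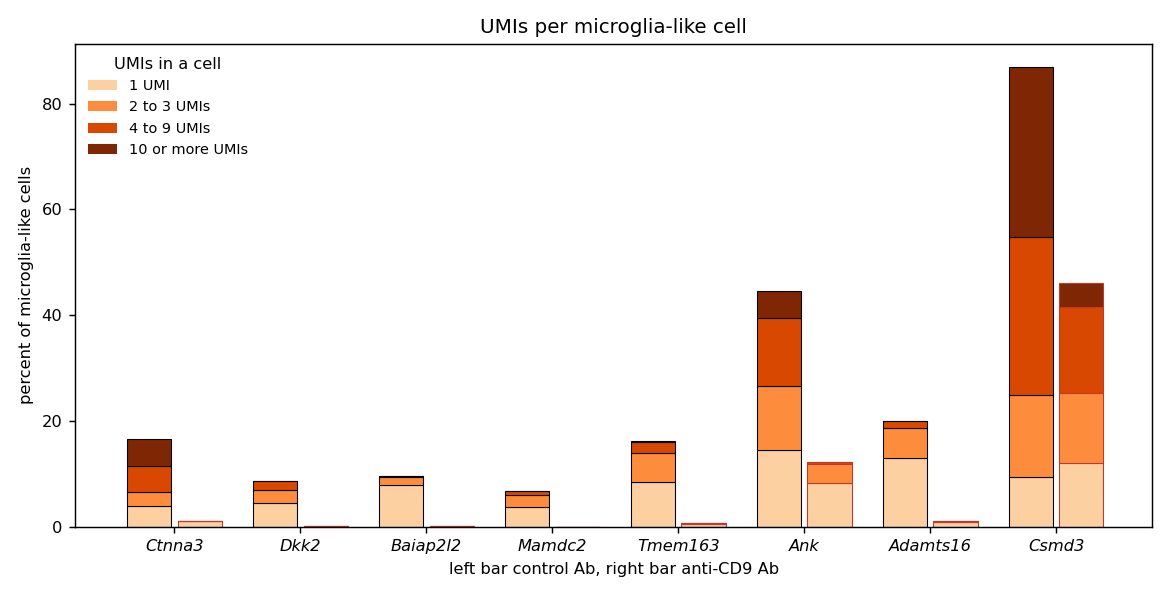
Stacked bars give the percent of microglia-like cells with 1, 2 to 3, 4 to 9 and 10 or more UMIs of each gene, control Ab on the left and anti-CD9 Ab on the right of each pair (1853 and 758 cells, not thinned). Ctnna3 reaches 10 or more UMIs in 95 control Ab cells and never passes 1 UMI after anti-CD9 Ab, while Csmd3 keeps cells at 10 or more in both libraries.

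To set shares of cells side by side, each cell was thinned to 2000 UMIs, leaving 1415 and 666 microglia-like cells (438 and 92 were shallower). At least 1 of the 8 genes was seen in 89.7% of control Ab cells and 46.2% of anti-CD9 Ab cells, a difference of -43.4 points (interval -47.5 to -39.3), and unthinned in 93.6% and 54.0%. Without Csmd3 the shares were 49.3% and 11.7%. Several of the 7 genes in the same cell were common only after control Ab, where 20.5% of cells held 2 or more of them, against 1 of 666 cells after anti-CD9 Ab.

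Free RNA in the droplets can give single UMIs to cells that do not make a gene, so the shares were read beside T cell-like cells, thinned alike (653 and 587 cells, from medians of 1555 and 2288 UMIs). Of the T cell-like cells 2158 and 401 were shallower and left out. Ctnna3 was seen in 14.6% of microglia-like cells after control Ab against 1.07% of T cell-like cells, and after anti-CD9 Ab in 0.751% against 1.19%. Macrophage-like cells after anti-CD9 Ab, thinned alike, were at 0.259%. The part of background in what remained was not tested. Dkk2 and Mamdc2 were seen in 0 of 666 microglia-like cells after anti-CD9 Ab, which allows a share of cells with a UMI of up to 0.450% at the floor of 3 counts, against 5.65% and 3.60% after control Ab. Baiap2l2 went from 5.16% to 0.150%, with 0 of 587 T cell-like cells after anti-CD9 Ab. Adamts16 went from 9.89% to 0.751%, against 0 of 587 T cell-like cells, so its remaining share is not shown to be background. Tmem163 went from 8.41% to 0.150%, and T cell-like cells, 37.3% of which held it after anti-CD9 Ab, give no background for it. Csmd3 was seen in 39.2% of microglia-like cells after anti-CD9 Ab and in 1.19% of T cell-like cells, well above background. Ank was seen in 10.1% of microglia-like cells and 9.20% of T cell-like cells after anti-CD9 Ab, but in 2.67% of macrophage-like cells.

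Within the control Ab library the 8 genes formed 2 patterns across microglial states. Higher in MG#4-like than in MG#2/3-like cells were Mamdc2 (5.67-fold, 36.6 against 6.46 CPM), Ctnna3 (3.19-fold, 384 against 120), Baiap2l2 (3.02-fold), Tmem163 (2.76-fold), Dkk2 (2.70-fold) and Ank (1.91-fold). Adamts16 and Csmd3 went the other way, at 0.730-fold (48.6 against 66.5) and 0.379-fold (953 against 2511). Every one of these 8 log2 ratios had a counting interval clear of 0, and the cells come from 1 library, so they are not replicates. The choice is not independent of this pattern, since it favored genes high in control Ab microglia, and MG#4-like cells were 830 of 1853 microglia-like cells after control Ab and 226 of 758 after anti-CD9 Ab.

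After anti-CD9 Ab the genes were lower in both states, Csmd3 still standing at 784 CPM in MG#2/3-like cells. In MG#4-like cells Ctnna3 went from 2224 to 3 UMIs, Dkk2 from 262 to 0, Mamdc2 from 212 to 0, Baiap2l2 from 177 to 1, Tmem163 from 482 to 6 and Adamts16 from 281 to 4. Ank went from 2549 to 80 and Csmd3 from 5516 to 164 UMIs, 5.09-fold and 5.38-fold lower in CPM. All 7 genes with at least 200 UMIs passed the log2 limit, Baiap2l2 being below that count, beside 0.474% of 5276 genes. Nothing is read from this, because the genes were chosen on this contrast and reached that count through the control Ab cells. Among MG#4 genes in the same cells, Lpl went from 3758 to 105 UMIs, 5.72-fold lower in CPM and thus by more than Ank and Csmd3. Spp1, the most abundant MG#4 gene, was 2.23-fold lower and Cd9 1.85-fold, and Tmem119 stood at 194 and 196 CPM.

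In MG#2/3-like cells Ctnna3 went from 559 to 6 UMIs, Adamts16 from 309 to 7, Tmem163 from 140 to 2, Dkk2 from 78 to 1, Baiap2l2 from 47 to 0 and Mamdc2 from 30 to 0. Few cells held much of this control Ab signal. The 10 highest of 1023 cells held 63.3% of the Mamdc2 UMIs, 59.0% of Dkk2, 53.8% of Ctnna3 and 44.3% of Tmem163. For Baiap2l2 it was 36.2%, for Ank 17.8%, for Adamts16 13.9% and for Csmd3 6.90%. The counting intervals do not cover such clustering of UMIs in few cells. Ank was 7.21-fold lower (1070 and 58 UMIs) and Csmd3 3.20-fold (11665 and 1423). Of 4 genes with at least 200 UMIs, 3 passed the limit, beside 0.368% of 5438 genes, and Csmd3 did not. Nothing is read from this count either, because the genes were chosen on this contrast. The state labels depend on the joint placement of the libraries. Clustered without integration, the microglia of the libraries lay largely apart. Another microglia-like cluster, led by Ccl12 and Cxcl13, then held 52 control Ab and 594 anti-CD9 Ab cells. These were most of the 818 microglia-like cells after anti-CD9 Ab. By its markers that cluster was MG#6-like, MG#6 being the study's interferon-responsive state (mean log2 enrichment of the MG#6 list 0.94). The integrated labels may therefore set unlike states side by side. Without integration the summed log2 ratio over all microglia-like cells was -1.87. The MG#4-like group then held 1073 and 109 cells, with a summed log2 ratio of -1.85 instead of -2.86. In MG#2/3-like cells it was -0.91 instead of -1.86.

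**Figure D3:**
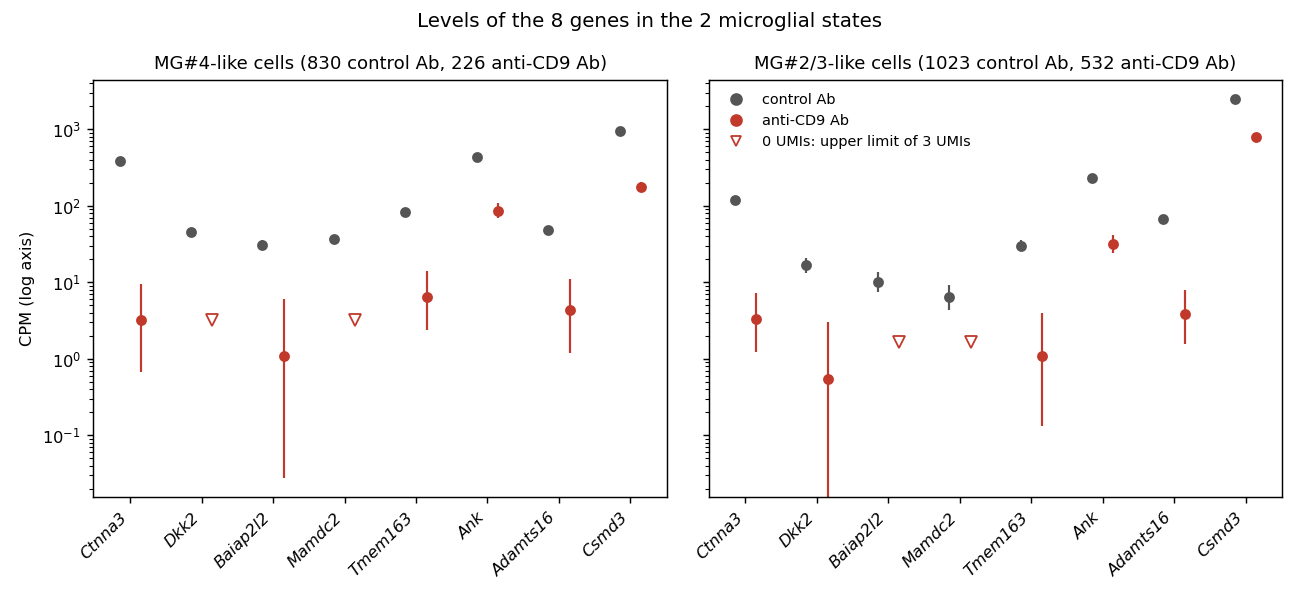
Points give CPM (log axis) of each gene in MG#4-like (left) and MG#2/3-like cells (right), gray for control Ab and red for anti-CD9 Ab, with 95% Poisson intervals, and open triangles mark 0 UMIs at the level of 3 UMIs. In each state every red point or triangle lies below its gray point, by 118-fold for Ctnna3 in MG#4-like cells and by 3.20-fold for Csmd3 in MG#2/3-like cells.

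Since anti-CD9 Ab cells also carried fewer UMIs of the MG#4 list (median 44 of 2000, against 110), cells were compared within ranges of that list, bounded by the control Ab quartiles of 49, 110 and 188.5 UMIs. The MG#4-like label was itself given by that list. Likeness between the ranges and the states in control Ab cells was therefore built in, and the ranges are no second observation. Dkk2 went from 0.829 UMIs per 100 cells in the lowest range (362 cells) to 16.9 in the highest (354 cells), Baiap2l2 from 0.552 to 8.76, Mamdc2 from 0.552 to 7.91 and Tmem163 from 1.66 to 16.9. Ctnna3 went from 13.5 to 89.5 and Ank from 24.6 to 101, with most of that step between the lowest range and the next. Csmd3 instead went down, from 673 to 141 UMIs per 100 cells. Adamts16 had no steady step, at 18.0, 10.5, 16.4 and 9.04 from the lowest range to the highest.

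The 8 genes were chosen as low in these same anti-CD9 Ab cells, so a shortfall within the ranges was fixed in advance. No loss beyond the MG#4 level is therefore read from it. Spp1 and Apoe hold many of the list's UMIs, and no gene outside the 8 was put through this matching. Computed from the control Ab rate of each range, the number for the 666 anti-CD9 Ab cells was 296 Ctnna3 UMIs. Observed were 3, or 1.02% of that number (interval 0.209 to 2.97). Dkk2 stood at 3.94% (1 of 25.4 UMIs), Tmem163 at 4.15% (2 of 48.2), Baiap2l2 at 5.70% (1 of 17.6) and Adamts16 at 6.88% (7 of 102). For Mamdc2, 0 UMIs were observed and 12.4 computed, which leaves an upper limit of 29.8%, and the Baiap2l2 interval reached from 0.144 to 31.7%, so at matched MG#4 level these genes were the least tightly bounded. Ank was at 18.2% (interval 14.1 to 23.2) and Csmd3 at 24.1% (interval 22.5 to 25.8). Summed, the 8 genes were at 21.2% (interval 19.8 to 22.6), and without Csmd3 at 9.27% (interval 7.35 to 11.5). The highest range held 41 anti-CD9 Ab cells, in which Ctnna3, Dkk2, Baiap2l2, Mamdc2 and Tmem163 had no UMI.

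**Figure D4:**
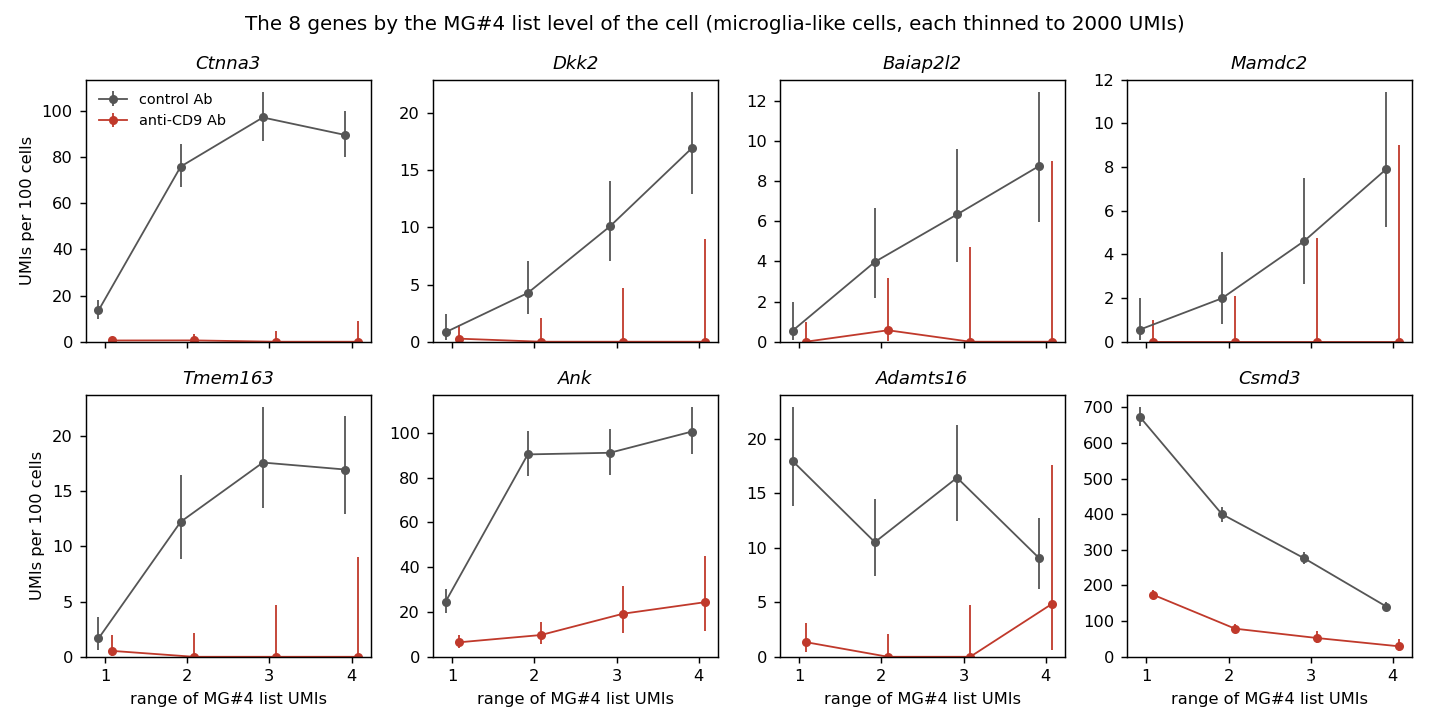
Each panel gives UMIs per 100 microglia-like cells (linear axes from 0, a scale for each gene) against 4 ranges of the MG#4 list's UMIs, from lowest to highest, with 95% Poisson intervals, gray for control Ab and red for anti-CD9 Ab. In control Ab cells 6 genes are higher in the highest range than in the lowest, Csmd3 and Adamts16 lower. Each anti-CD9 Ab point lies below its control Ab point, with 0 to 0.571 UMIs per 100 cells for Ctnna3 but up to 174 for Csmd3. Intervals of sparse genes can overlap, as for Adamts16 in the highest range.

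Cells with strong Ctnna3 signal also carried more of the others. Among control Ab MG#4-like cells, the 162 cells with 3 or more Ctnna3 UMIs had 3.25-fold more Dkk2 than the 593 cells with none (93.9 against 28.9 CPM), 2.65-fold more Baiap2l2, 1.95-fold more Ank and 1.86-fold more Tmem163. Mamdc2, Adamts16 and Csmd3 differed by 1.44-fold, 1.33-fold and 1.27-fold. Several MG#4 genes were higher in those cells by similar amounts, among them Csf1 (1.56-fold), Lpl (1.53-fold) and Itgax (1.40-fold), while Spp1 (0.929-fold) and Apoe (0.787-fold), which hold many of the list's UMIs, were not, and the summed list was at 0.944-fold. T cell markers were at 0.932-fold and oligodendrocyte markers at 0.813-fold, while the median depth was 5316 against 4187 UMIs. Over all 1415 thinned microglia-like cells, Ctnna3 and Dkk2 were seen together in 40 cells where independent detection gives 11.4. Pairs without Csmd3 ranged from 1.27 times the independent number (Adamts16 and Baiap2l2, 9 cells) to 5.18 times (Dkk2 and Mamdc2, 12 cells against 2.32). The independent number pools both microglial states, so the part of a shared state in these ratios was not tested. Pairs with Csmd3 came at 1.00 to 1.14 times the independent number, but Csmd3 was seen in 79.1% of these cells, which leaves little room for a higher ratio, so nothing is read from them.

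Outside microglia several of the genes were plainly present, and some had similar levels in both libraries. Ctnna3 was highest in oligodendrocyte-like cells, at 1522 CPM after control Ab and 1515 after anti-CD9 Ab (849 and 169 UMIs, log2 ratio -0.01, interval -0.24 to 0.23). Thinned to 1000 UMIs, however, it was seen in 72.9% of 155 oligodendrocyte-like cells and 46.9% of 32. Tmem163 stood at 290 and 298 in T cell-like cells (1415 and 830 UMIs, log2 ratio 0.04, interval -0.08 to 0.16), at 362 and 258 in NK cell-like cells and at 244 and 345 in B cell-like cells, above its 59.6 in control Ab microglia-like cells. In neuron-like cells Ctnna3 was at 967 and 356 (log2 ratio -1.44), from 301 and 75 cells. Ank was at 407 and 341 in oligodendrocyte-like cells and at 58.9 and 44.5 in T cell-like cells (log2 ratio -0.41, interval -0.71 to -0.10). By CPM, Csmd3 was lower after anti-CD9 Ab at 1498 and 1004 in oligodendrocyte-like cells (log2 ratio -0.58, interval -0.86 to -0.29) and 10.8 and 5.74 in T cell-like cells. It stood at 1329 and 933 in neuron-like cells, and at 13.6 and 21.3 in NK cell-like cells (log2 ratio 0.65, interval -0.64 to 1.94). Thinned to 1000 UMIs, its share of cells differed by -29.8 to 5.90 points (interval) in oligodendrocyte-like cells. That interval was -28.3 to 5.23 in neuron-like and -0.990 to 0.363 in T cell-like cells. No difference in these 3 shares is read. Csmd3 was seen in 10 of 146 and 1 of 132 plasma cell-like cells thinned to 2000 UMIs (interval -11.4 to -1.49 points). At 1000 UMIs that interval was -7.77 to 0.613. Ank was seen in 61 of 282 and 1 of 28 astrocyte-like cells thinned to 1000 UMIs (interval -24.0 to -3.25). Ctnna3 in T cell-like cells thinned to 1000 UMIs went the other way, seen in 6 of 2472 and 7 of 919 (interval 0.0336 to 1.33). Dkk2, Adamts16 and Baiap2l2 stayed at or under 17.9 CPM in every named group outside microglia in both libraries, and Mamdc2 at or under 31.6, reached in astrocyte-like cells.

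Marker RNA of those cell types was also measured in the microglia-like cells. Ctnna3 in microglia-like cells was at 17.5% of its oligodendrocyte-like level after control Ab and at 0.217% after anti-CD9 Ab. The 7 oligodendrocyte markers were at 0.18% (Mog) to 2.36% (Mbp) of theirs after control Ab. After anti-CD9 Ab they were at 0.07% (Mog) to 3.65% (Mag). None was at 0, and they summed to 100.2 and 87.9 CPM in the 2 libraries. Csmd3 in microglia-like cells was at 124% of its neuron-like level after control Ab and at 62.0% after anti-CD9 Ab. The 7 neuron markers were at 0.14% (Nrxn3) to 11.2% (Rbfox1) of theirs after control Ab, with Celf4 at 5.38% and the rest under 1%. After anti-CD9 Ab they were at 0% (Syt1) to 4.01% (Rbfox1). Tmem163 was at 20.6% of its T cell-like level after control Ab and 0.980% after anti-CD9 Ab. The 7 T cell markers, none at 0 in either library, were at 1.33% to 2.45% and at 0.13% to 0.55% of theirs, and summed to 137 and 21.5 CPM. T cell RNA in microglia-like cells thus differed between the libraries too, as did the share of T cell-like cells (37.6% and 10.8% of kept cells). The part of RNA from other cell types in the Ctnna3, Csmd3 and Tmem163 values was not tested beyond these values.

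Macrophage-like cells were few after control Ab, 191 against 1245. Ctnna3, Dkk2, Adamts16, Baiap2l2 and Tmem163 stayed at or under 8.28 CPM in them in both libraries, but Mamdc2, Ank and Csmd3 did not. Csmd3, the only one of the 8 genes with at least 200 UMIs, reached that count through the control Ab cells alone. It went from 212 UMIs, in 37 of 191 cells and up to 25 in a cell, to 20 (176 and 3.02 CPM). Its log2 ratio of -5.86 was the lowest of 5230 genes, beside 0.746% of genes past the limit, and nothing is read from that place. Other genes set these groups apart as well, with Spp1 at 68184 and 1839 CPM and Cd9 at 4239 and 378. Mamdc2 went from 35 to 5 UMIs (29.0 and 0.755 CPM) and Ank from 93 to 80 (77.0 and 12.1 CPM). In the control Ab cells Mamdc2 was thus at 125% of its microglia-like level. Microglial markers moved alongside: P2ry12, Siglech, Sall1 and Gpr34 were at 10.6% to 15.0% of their microglia-like level in control Ab macrophage-like cells and at 0.46% to 4.75% in the anti-CD9 Ab ones, Tmem119 at 14.8% and 13.9%. Csmd3, at 10.7% and 0.52%, lay within that range, and the part of microglial RNA in these values was not tested. Clustered without integration, the summed log2 ratio in macrophage-like cells was -2.20 instead of -3.71.

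**Figure D5:**
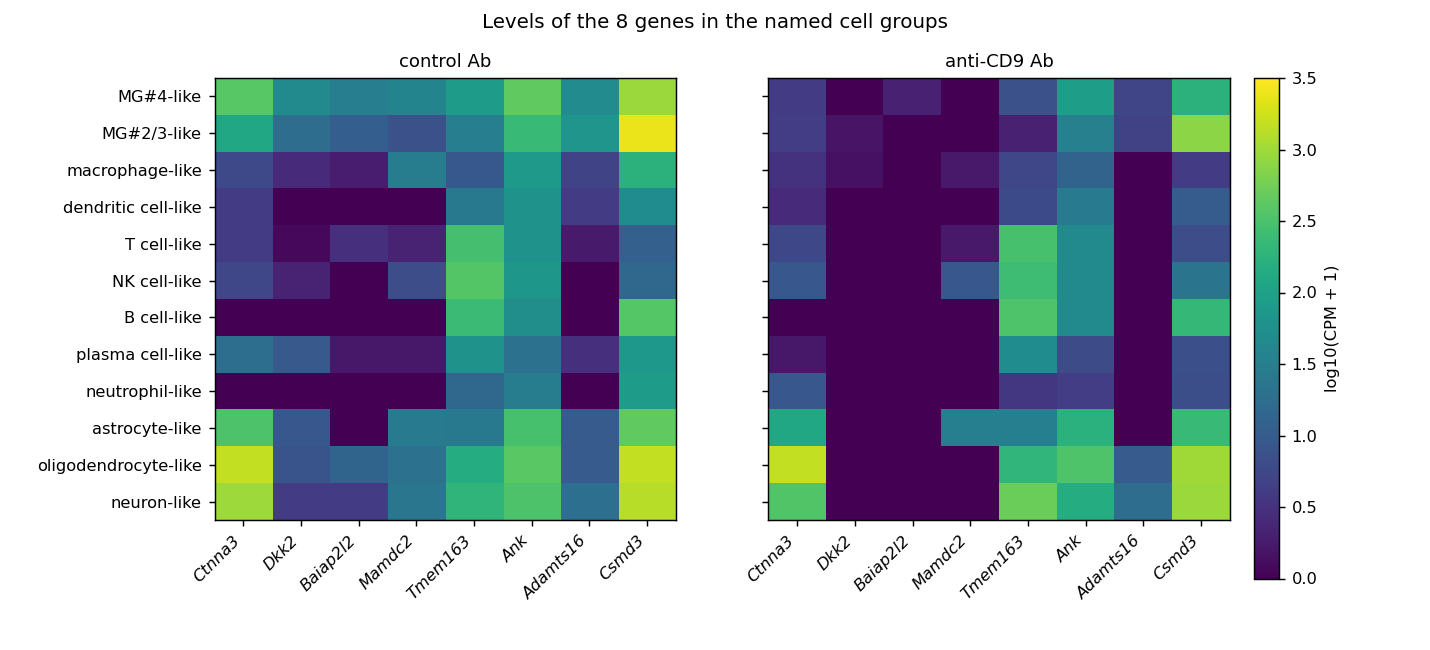
Color gives log10(CPM + 1) of each gene (columns) in 12 named cell groups (rows) after control Ab (left) and anti-CD9 Ab (right). The 2 microglial rows darken for all 8 genes from left to right, while Ctnna3 in oligodendrocyte-like cells (1522 and 1515 CPM) and Tmem163 in T cell-like cells (290 and 298) look alike in both panels.

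Cells near microglia that were left unnamed gave the same direction for most genes. In a group of low depth (362 and 232 cells, medians of 807.5 and 854.5 UMIs) Ctnna3 went from 64 to 1 UMIs, Adamts16 from 24 to 1 and Csmd3 from 908 to 108. In a group led by cell cycle genes such as Top2a and Birc5 (118 and 85 cells), Ctnna3 went from 110 to 0 and Ank from 199 to 7. Mamdc2 in the low-depth group, at 3 and 2 UMIs, was too sparse to compare. Another unnamed group near microglia (216 and 27 cells) consisted mostly of predicted doublets (74.5% and 85.2%). In that group, thinned to 2000 UMIs, Tmem163 was seen in 22.1% and 19.2% of cells (difference interval -15.2 to 16.5 points), so no difference is read there.

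Relatives of the 8 genes, counted with at least 50 UMIs in microglia-like cells, mostly stood near the median of all 11022 such genes, a log2 ratio of 0.02 with 5296 below 0 and 5726 above. For the catenins, 2 of 3 were lower, with a median of -0.15: Ctnnb1 at -0.40, Ctnnd1 at -0.15 and Ctnna1, the common α-catenin, at 0.04. The measured partners of Dkk2 were Lrp6 (-0.01), Kremen1 (0.10) and Lrp5 (0.29). In the I-BAR list Mtss1 was at -0.99, Baiap2 at 0.09 and Baiap2l1 at 0.77. Of 6 zinc transporters 4 were higher (median 0.20, from Slc30a6 at -0.24 to Slc30a7 at 0.66), and the pyrophosphate and phosphate genes Enpp1, Slc20a1, Slc20a2 and Xpr1 lay between -0.05 and 0.08. The ADAMTS list differed, with Adamts1, a protease that cleaves proteoglycans, at -3.90 (341 and 6 UMIs) and Adamts10 at -0.13. Csmd1 and Csmd2 were below 50 UMIs.

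The lists of microglial programs had smaller median log2 ratios than the 8 genes. Because the 8 were chosen on this contrast, nothing is read from that difference. All 20 MG#4 genes were lower (median -1.01), 1 of them past the limit: Lpl, lipoprotein lipase, at -3.16, followed by Spp1 at -1.98, Gpnmb at -1.83 and, at the other end, Cd63 at -0.33. Of 16 further disease-associated genes 14 were lower (median -0.73), with Ccl6 at -2.12, Atp6v0d2 at -2.10, Fam20c at -1.95 and Lilrb4a highest at 0.63. Of 10 homeostatic genes 9 were lower (median -0.29), with Gpr34 at -1.29, Siglech at -0.73 and Tmem119 highest at 0.06. Malat1, a nuclear RNA, moved in the opposite direction, from 9822 to 14910 CPM in the same cells, while mitochondrial UMIs were 1.11% in both.

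By structure the set leaned to long genes. In the GENCODE M21 annotation 6 of the 8 genes span at least 100 kb, against 15.5% of 7681 genes with a length, and the medians were 137 and 30 kb. Ctnna3 spans 1574 kb and Csmd3 1211 kb, while Dkk2 lies just under 100 kb and Baiap2l2 spans 27.3 kb. By length class the median log2 ratio was -0.04 for genes under 30 kb, 0.11 for 30 to 100 kb, 0.12 for 100 to 300 kb and -0.02 for 300 to 1000 kb. The 11 genes of 1000 kb or more, among them Ctnna3 and Csmd3, had a median of -0.82. In the same order, 13 of 3840 (0.339%), 7 of 2651 (0.264%), 14 of 998 (1.40%), 3 of 181 (1.66%) and 2 of 11 genes (18.2%) passed the log2 limit. These counts include those of the 8 genes that passed, which were chosen on this contrast. No trend with length is therefore read from them. Ank, Baiap2l2 and Csmd3 lie on chromosome 15, and the other 5 genes on chromosomes 1, 3, 10, 13 and 19.

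Genes that overlap the set on the opposite strand were counted apart. Lrrtm3, which lies inside Ctnna3, had 151 and 0 UMIs in microglia-like cells, at least 13.2-fold lower, and Gm36529, opposite Adamts16, 26 and 0 UMIs. Mgat5 beside Tmem163 was at 291 and 380 CPM, and Otulin beside Ank at 80.6 and 59.1, so neither differed by as much as its neighbor. The libraries are of a kind that keeps strand, but whether reads in introns were counted is not given in the sources used here.

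The genes whose levels across 12 control Ab cell groups were most like the mean of the 8 were Maged1, Etv1, Tmem144 and Lypd6 (Pearson r of 0.95 each on log2(CPM + 10)), Eri3, Cacna1a, Ninl, Plekhh2 and Asah2 (0.94 each) and Iffo1 (0.93). These correlations run over groups of 1 library, which share depth and free RNA. In microglia-like cells Maged1 stood at 26.0 and 10.6 CPM, Lypd6 at 30.6 and 11.7 and Cacna1a at 151 and 61.3, while Eri3 (101 and 105) and Asah2 (46.0 and 46.3) were alike in both libraries. Among the 8 themselves r with their mean ran from 0.95 for Ank down to 0.15 for Tmem163, the gene with the highest levels in lymphocytes.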

How the data were processed

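Single-cell RNA-seq libraries of sorted CD45+ thalamic cells were made by the authors on the 10x Genomics 3′ platform, and the deposited matrices hold raw UMI counts per gene and barcode. The submitters' processing notes name Cell Ranger 8.0.0 and GRCm39, while the study's methods name another Cell Ranger version and GRCm38, so no gene coordinates are given for the counts. Barcodes with 200 to 7500 genes and at most 2% mitochondrial counts were kept, as in the study's methods.

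Counts were clustered in Seurat 5.3.0 (R 4.3.3) after anchor integration (30 components, resolution 0.8) with the 8 genes and the state markers left out of the variable genes. A cluster was named when at least 3 and at least 50% of a type's markers were enriched and it held no more than 50% predicted doublets. Doublets (scanpy 1.11.5 Scrublet scores, 0.8% per 1000 barcodes, 9.43% and 12.0% of kept cells) were kept in the main values. The 8 genes and the gene lists were chosen with earlier results of these data known. Since either antibody had only 1 library, no test was run. UMIs were summed per group and scaled to 1000000 (CPM), with exact Poisson, exact binomial and Newcombe 95% intervals, which cover counting error only, and log2 ratios with the Poisson errors of both counts. A count of 0 was set to a floor of 3 UMIs over the group. Depth and thinning to 2000 UMIs limit the shares, and each thinning was drawn anew, so counts of 1 or 2 UMIs vary between draws. The ratio was tested on simulated independent Poisson counts, with counts of 0 left out and changes smaller than those of Ctnna3 and Dkk2. That test does not cover changes of their size or UMIs clustered in few cells. Genes named beside the 8 were the 3 lowest and the highest of each list, all measured relatives, the 10 genes of most similar pattern, Cd9, Spp1, Lpl, P2ry12, Tmem119, overlapping genes and markers of other cell types. Some genes that this rule names are not reported here. Alternatives covered the mitochondrial limit, integration, components, seed, doublets, selection by markers, scaling, thinning depth and the count and fold limits.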

Additional observations from a re-analysis of the deposited data

Results flagged for a closer look

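By CPM, Tmem163 had opposite directions in different cell groups. In neuron-like cells it was higher after anti-CD9 Ab, at 193 and 509 CPM (248 and 60 UMIs, log2 ratio 1.40, interval 0.99 to 1.80), whereas it was lower in microglia-like cells (-4.35), NK cell-like cells (-0.49) and dendritic cell-like cells (-2.28). The difference between these groups was not tested. The neuron-like cells numbered 301 and 75, their median depths were 2607 and 957 UMIs, and 18.3% and 36.0% of them were predicted doublets. Thinned to 1000 UMIs, Tmem163 was seen in 35 of 264 and 7 of 35 neuron-like cells. The difference was 6.74 points (interval -4.24 to 23.0), so no difference in the share of neuron-like cells is read. In dendritic cell-like cells thinned to 2000 UMIs it was seen in 3 of 109 and 1 of 208 (difference interval -7.32 to 0.572 points). The part of depth in the CPM values, and that of doublets, was not tested further.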

How the results depend on the processing

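Values are log2 ratios of the summed 8 genes unless stated, and no result turned direction under the alternatives run. With a limit of 5% mitochondrial counts the ratios were -2.17 in microglia-like, -3.11 in MG#4-like, -1.75 in MG#2/3-like and -3.37 in macrophage-like cells, and the genes stood at 18.2% of the number computed at matched MG#4 level. Without integration they were -1.85 in MG#4-like, -0.91 in MG#2/3-like and -2.20 in macrophage-like cells. With 20 components they were -2.67 and -1.62 in the 2 states, and with another seed -1.66 in MG#2/3-like cells. In cells taken by markers without clusters they were -2.23 in microglia-like and -2.10 in macrophage-like cells, with 18.4% at matched level. The share of all genes past the limit in microglia-like cells was 1.10% with at least 50 UMIs and 2.56% at a log2 ratio of -1 or lower. Of the values of single genes under alternatives, 47 stayed within their counting interval and 2, both of Csmd3 (-1.76 and -1.82), did not. Under the 5% limit Dkk2 kept 9 UMIs after anti-CD9 Ab (-4.16), Mamdc2 6 and Tmem163 28 (-3.47), and in cells taken by markers Ctnna3 kept 29 (-5.48). The causes were not tested. The sums without Csmd3 were added after seeing the data. No paired analysis was possible because each antibody has 1 library. Counts of 0 to 2 UMIs limit how far the size of the Dkk2, Baiap2l2 and Mamdc2 differences is known.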
